A study of Blastobotrys raffinosifermentans with 8 samples.

Results

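The net change over the course was taken between the first and the last harvest of a medium shift in the yeast *Blastobotrys raffinosifermentans* LS3. It rests on 4 of the 8 arrays of the series, namely the arrays harvested at 5 h and at 15 min, 1 of each arm, paired by arm. All cells had grown overnight in minimal medium with glucose and nitrate before the shift. In the glucose arm they went to medium with 1% glucose, and in the gallic acid arm to medium with 1% glucose and 0.5% gallic acid. Total RNA was hybridised to 1-colour arrays, with 1 array per arm and harvest (15 min, 30 min, 2 h, 5 h). Both arms are the wild-type strain, so the time after the shift is shared by both and the acid is the only labelled difference between them. Within an arm each harvest was measured once. Separate cultures are not mentioned in the labels. The spread behind every p-value below is how far the arms differ in their course, with 1 array for each value. It holds any response to the acid that changes over the course and any technical scatter, which cannot be told apart. All 8 arrays lay on 1 slide, with the arms in its rows and the harvests in its columns, so the course and the slide column cannot be told apart.

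*B. raffinosifermentans*, long known as *Arxula adeninivorans*, grows on tannins and on the aromatic acids released from them. Tannic acid is split to gallic acid, which is decarboxylated and then broken open by ring-cleaving dioxygenases. Yeasts moved to fresh medium commonly change many transcripts for a short time and then settle, and transcripts can also shift later as nutrients are used and cells become denser.

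A level is the log2 intensity of a locus tag, taken as the median over its probes after background correction and quantile normalisation. A net change is the level at 5 h minus the level at 15 min of the same arm, in log2 units, so that 1 is a doubling. Of 6159 locus tags on the arrays, 6111 were tested, those with 1 or more probes flagged as well above background on 2 or more of the 8 arrays. Names and functions of tags are not paired in the files, so tags are given by their identifier and, except for those to which the study gives a role, without a function. The letter after ARAD1 in a tag stands for its chromosome or replicon. Of the spots, 78.6% in glucose and 58.9% with gallic acid were well above background at 15 min, against 58.2% and 56.7% at 5 h. At 30 min the shares were 72.5% and 67.7%. The 2 h arrays had the highest share of each arm, 81.9% and 74.3%, and the highest median spot signal, 115 and 96.5. Before normalisation the 10 added spike-in RNAs had a median 5 h minus 15 min change of -0.33 in glucose and 0.15 with gallic acid. The part of these technical differences in the results below was not tested.

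On the normalised scale most tags ended close to where they had started in both arms, while a small set ended far above or below its first level. Over the tags tested, the net change had quartiles of -0.11 and 0.14 in glucose and of -0.13 and 0.15 with gallic acid, with medians of 0.02 and 0.01. Quantile normalisation gives all arrays the same distribution, which holds these medians near 0. With the processed signal minus its 75th percentile they were -0.12 and 0.15. The extremes were -5.46 and 3.49 in glucose and -4.84 and 4.03 with gallic acid. In 81.9% of the tags the net change was under 0.5 in size in both arms. This share includes dim tags, whose ratios the background correction shrinks. In the lowest quartile of mean level and the next, a median of 10% and 50% of probes were well above background at 5 h in glucose. The arms, which share no array in this comparison, had the same sign in 4469 tags (73.1%), with Pearson's r of 0.78 and Spearman's rho of 0.67 across the 6111 tags, which are not independent replicates.

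Common to both arms, 412 tags were higher and 399 were lower at 5 h than at 15 min (limma, Benjamini-Hochberg adjusted p below 0.05). These are 6.74% and 6.53% of the tags tested, or 13.3% together. All 811 moved the same way in both arms, which the test favours, since its spread is the disagreement between the arms. Under median scaling the counts were 230 and 365, so the share of rises among the calls went from 50.8% to 38.7%. Their changes were mostly small, with a median of 0.51 for the tags that rose and -0.55 for those that fell. Only 64 and 66 of them reached a size of 1, and 200 and 171 stayed under 0.5. The calls lean on single arrays. Without the glucose array at 5 h, 71 tags passed as higher and 44 as lower, and without the gallic acid array at 5 h, 41 and 14. Without the glucose array at 15 min the counts were 205 and 257, without the gallic acid array at 15 min 202 and 166, without the 2 h pair 199 and 155, and with the 4 arrays of 15 min and 5 h alone 89 and 88. Bright tags passed more often. Of the quartile of tags with the highest mean level over the 8 arrays 23.5% were called, against 18.9%, 8.44% and 2.29% in the quartiles below it.

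**Figure D1:**
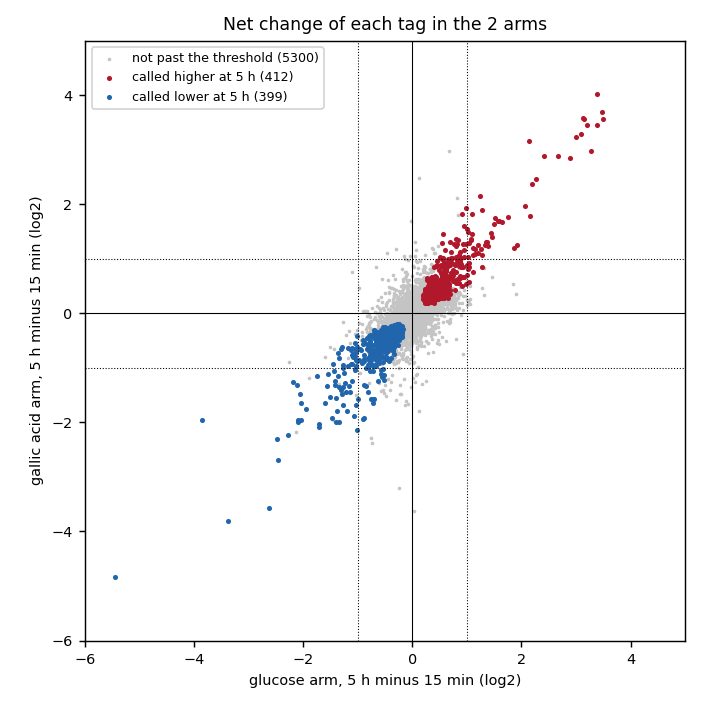
Net change of each of the 6111 tags, with the glucose arm on the x axis and the gallic acid arm on the y axis (5 h minus 15 min, log2). Red and blue points are the 412 tags called higher and the 399 called lower, grey points did not pass, and dotted lines mark a size of 1. The called tags lie along the diagonal in both directions, which the test favours, and the grey points far from it are tags that moved in 1 arm.

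By size, 49 tags (0.802% of those tested) rose by at least 1 in both arms and 53 (0.867%) fell by at least 1 in both arms, together 1.67%. Taken alone, the glucose arm had 69 rises (1.13%) and 94 falls (1.54%) of this size and the gallic acid arm 96 (1.57%) and 105 (1.72%). No tag reached this size in opposite directions. The rises had a median of 1.51 in glucose and 1.69 with gallic acid, and the falls -1.43 and -1.55. For 42 of the 49 rises and 38 of the 53 falls the arms were within 0.5 of each other, with a median gap of 0.19 and 0.24. All 102 tags had at least 80% of their probes moving in the same direction as the tag in each arm. At the end where they were high, at least 70% of the probes of each were well above background on both arrays. Over the 4 harvests the median level of the 49 tags was 6.92, 7.18, 7.01 and 8.74 in glucose, and 6.80, 7.30, 7.05 and 8.65 with gallic acid. The median thus stepped up between the last 2 harvests, although 12 of the 49 had already risen by at least 1 in both arms at an earlier harvest. The 53 tags that fell went from 8.88 to 7.56, 7.11 and 7.16 in glucose, and from 8.65 to 7.60, 7.28 and 6.97 with gallic acid. Most of the fall of this median was in place at 30 min.

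Counts by size depend on the background correction, which shrinks the ratios of dim tags. With the offset of the correction set to 0, 144 tags rose and 170 fell by at least 1 in both arms, and 86 and 96 did so in the log2 values that the authors deposited. All 49 rises and 53 falls kept their sign in both arms in these 2 versions.

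The largest rise was that of ARAD1D17358g. In glucose it read 8.05, 7.60, 7.36 and 11.44 from the first to the last harvest. With gallic acid it was 8.02, 8.20, 7.29 and 12.04. Both 5 h arrays stood above all 6 earlier ones, and the net change was 3.71 (SE 0.21, 13.1-fold, n = 2 arms, adjusted p = 0.00231). ARAD1D12804g behaved alike, with 7.93, 7.43, 7.81 and 11.41 in glucose and 7.93, 7.93, 8.00 and 11.63 with gallic acid. The net change was 3.59 (SE 0.12, 12.1-fold, adjusted p = 0.000668). Neither tag moved by 1 in both arms at 30 min or 2 h, and both passed the threshold in all 16 alternative fits. Bonferroni adjustment over all tags tested was not one of these fits. ARAD1D12804g passed it and ARAD1D17358g did not (limma, unadjusted p = 6.43e-07 and 9.46e-06).

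The largest fall was that of ARAD1B14454g, among the brightest tags at the start. In glucose its level was 12.51 at 15 min and 7.99, 6.998 and 7.05 at the later harvests. With gallic acid it was 11.91 and then 10.06, 7.41 and 7.07. The decline was slower with gallic acid at 30 min, and both arms had reached a like level by 5 h. The net change was -5.15 (SE 0.62, 35.5-fold, adjusted p = 0.0124). It missed the threshold without the glucose array at 5 h (adjusted p = 0.0850) and without the gallic acid array at 5 h (adjusted p = 0.105), where the fitted change was -5.45 and -4.84. ARAD1C45672g declined at every harvest, from 9.61 to 7.03, 6.66 and 6.23 in glucose and from 10.21 to 8.94, 8.11 and 6.41 with gallic acid. Its net change was -3.59 (SE 0.43, adjusted p = 0.0124), with a range of -5.42 to -3.02 over the alternatives. Without the gallic acid array at 5 h it was -3.02 with an adjusted p of 0.0838. Its signal was dim by then, with 50% of probes in glucose and 80% with gallic acid well above background at 5 h.

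**Figure D2:**
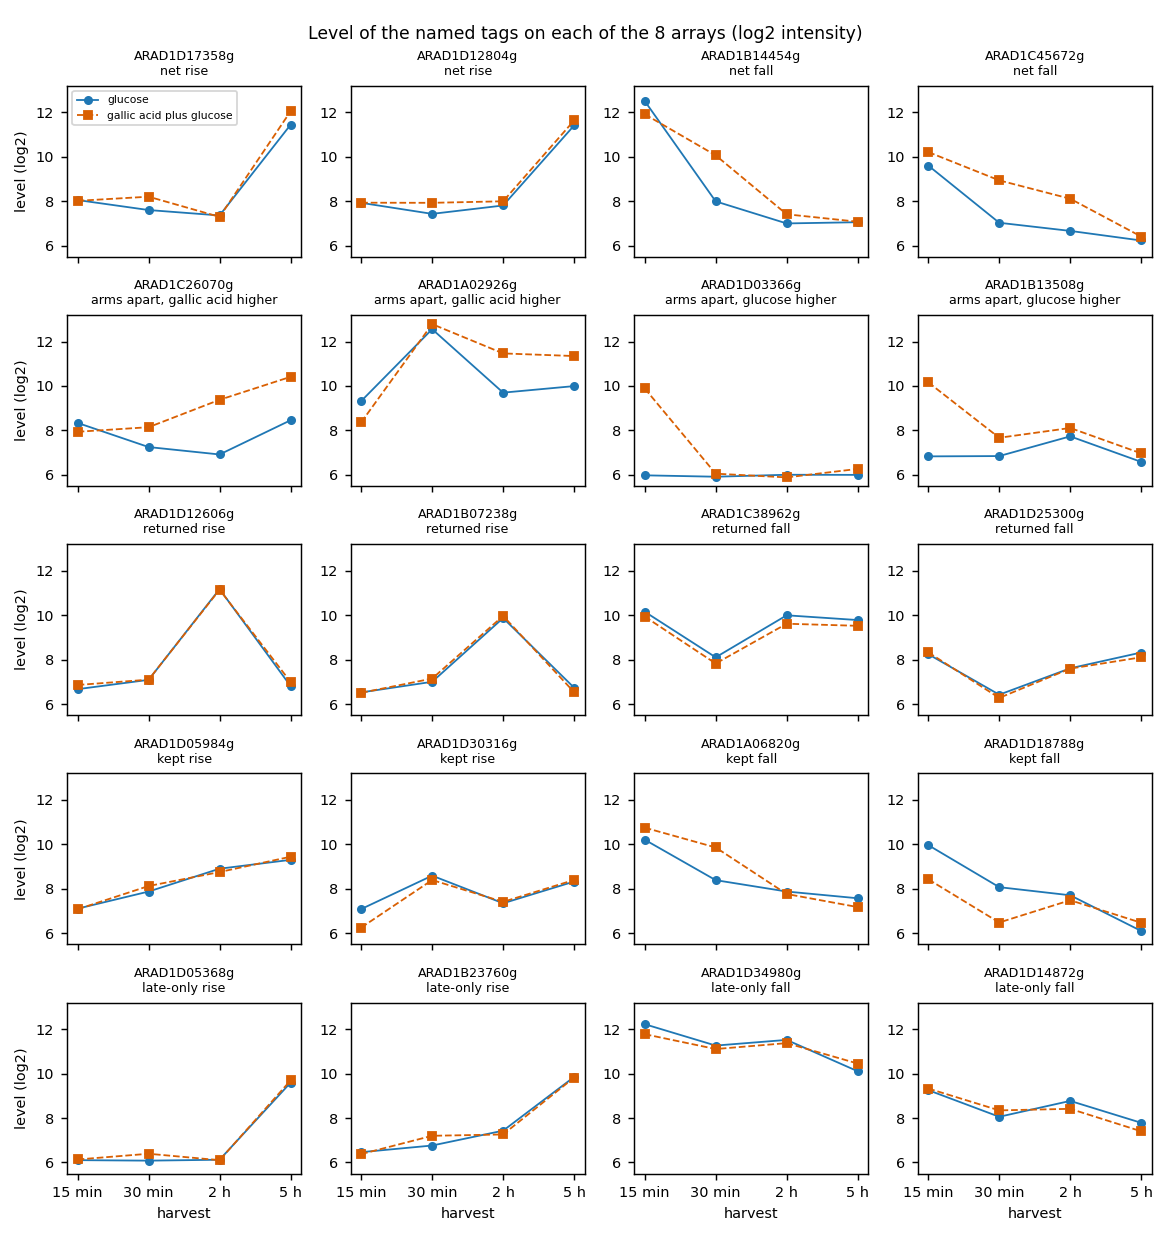
Level (log2 intensity, y axis) of the 20 named tags on each of the 8 arrays, by harvest (x axis, not to time scale), with 1 point per array, circles for glucose and squares for gallic acid plus glucose. The top row holds the largest net rises and falls, the second row the tags whose arms differed most in net change, and the others the returned, kept and late-only tags; the arms overlie in most panels outside the second row.

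An early change was defined as a change of at least 1 against 15 min, in the same direction in both arms, at 30 min or at 2 h, whichever was larger. It was met by 386 tags (6.32%), of which 273 (4.47%) rose and 113 (1.85%) fell. Each tag was then placed by its net change. It returned if the net change was under 0.5 in size in both arms, kept its change if it was at least 1 in the same direction in both arms, reversed if it was at least 0.5 in the opposite direction in both arms, and was partial otherwise. Early and net changes use the same 15 min arrays, so the classes describe courses and were not tested.

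By this definition most rises had returned by 5 h, and most falls had not, although many of these falls were partly undone. Of the 386 tags, 201 returned, 126 were partial, 53 kept their change and 6 reversed. Returned tags made up 182 of the 273 early rises (66.7%) and 19 of the 113 early falls (16.8%). Of all tags tested, 81.9% had a net change inside the same band in both arms. In glucose the returned rises started at a median of 6.59, the returned falls at 8.39 and the kept falls at 8.88. The background correction shrinks the changes of dim tags, and its part in the gap between rises and falls was not tested. Kept tags were 12 of the rises and 41 of the falls, and partial tags 74 and 52. The partial rises had a median early change of 1.63 and a median net change of 0.50. For the partial falls these were -1.49 and -0.72. The gap between rises and falls was wider among changes that were larger at 2 h than among those at 30 min. The 2 h arrays were also the brightest of each arm before normalisation, and the part of this in the gap was not tested. Of the 199 tags with their larger rise at 2 h, 149 (74.9%) returned and 7 kept the rise, while of the 76 with their larger fall at 2 h, 11 (14.5%) returned and 30 (39.5%) kept the fall. Of the 74 rises at 30 min 33 (44.6%) returned, and of the 37 falls at 30 min 8 (21.6%) did.

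**Figure D3:**
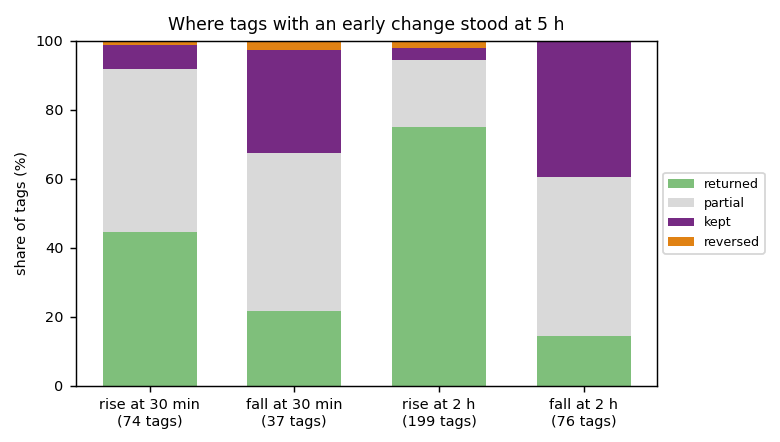
Share (%, y axis) of the tags with an early change that had returned, were partial, had kept the change or had reversed at 5 h, for rises and falls whose larger early change was at 30 min or 2 h (x axis, with the number of tags). The returned share is 74.9% for rises at 2 h and 14.5% for falls at 2 h.

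The 182 tags that returned after a rise had median levels of 6.59, 6.96, 8.07 and 6.57 at the 4 harvests in glucose. With gallic acid it was 6.50, 6.99, 7.97 and 6.57. Their median early rise was 1.49 and their median net change 0.02, with 102 tags above and 80 below the start. The 19 tags that returned after a fall went from a median of 8.39 to 7.82, 7.46 and 8.45 in glucose and from 8.35 to 7.61, 7.54 and 8.33 with gallic acid. A value near the start does not show that a tag is back at it. The 95% interval of the net change lay wholly within 0.5 of the start for 144 of the 201 returned tags (71.6%), against 69.2% of all tags tested. Of the 201 returned tags 12 were called in the net comparison, 8 higher and 4 lower, where 13.3% of all tags were. The definition of a return uses the same net change. With a band of 0.25 in place of 0.5, 101 tags returned. With the offset at 0 there were 419, and 326 in the log2 values that the authors deposited. Returned rises outnumbered returned falls by 323 to 96 and by 277 to 49 in these 2 versions, and by 250 to 134, a much smaller margin, with the processed signal. The members of the class also changed. Of the 201 tags, 110 were still in it with the offset at 0 and 155 in the authors' log2 values. Over the other scalings and probe summaries this number ran from 73 with the processed signal to 185 with median scaling.

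ARAD1D12606g had the largest rise among the returned tags. Its level in glucose was 6.67, 7.09, 11.17 and 6.81 at the 4 harvests, and with gallic acid 6.86, 7.10, 11.15 and 6.997. The 2 h arrays stood alone, 4.40 above 15 min, and the net change was 0.14 (SE 0.08, 95% interval -0.06 to 0.34, adjusted p = 0.287). Its brightest probe rose by only 0.14 at 2 h, so the rise was not shared by all of its 9 probes. ARAD1B07238g rose from 6.52 to 7.0 and 9.87 in glucose and came down to 6.74, and from 6.50 to 7.14 and 9.97 with gallic acid before 6.53. Its rise was 3.41 and its net change 0.12 (SE 0.09, interval -0.12 to 0.36, adjusted p = 0.451). With its brightest probe the rise was 1.83.

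The falls that were undone had their low point at 30 min in the pair named here. ARAD1D25300g read 8.24, 6.42, 7.61 and 8.32 in glucose and 8.33, 6.28, 7.59 and 8.10 with gallic acid. It fell by 1.94 and ended at a net change of -0.07 (SE 0.09, interval -0.29 to 0.14, adjusted p = 0.618). ARAD1C38962g read 10.16, 8.10, 9.995 and 9.78 in glucose and 9.94, 7.82, 9.62 and 9.52 with gallic acid. It met the definition of a return, but its net change of -0.40 (SE 0.06, adjusted p = 0.0195) passed the threshold, so it ended slightly lower. Over its downstream probes alone the early change was -0.29 in place of -2.08, so its probes disagreed.

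**Figure D4:**
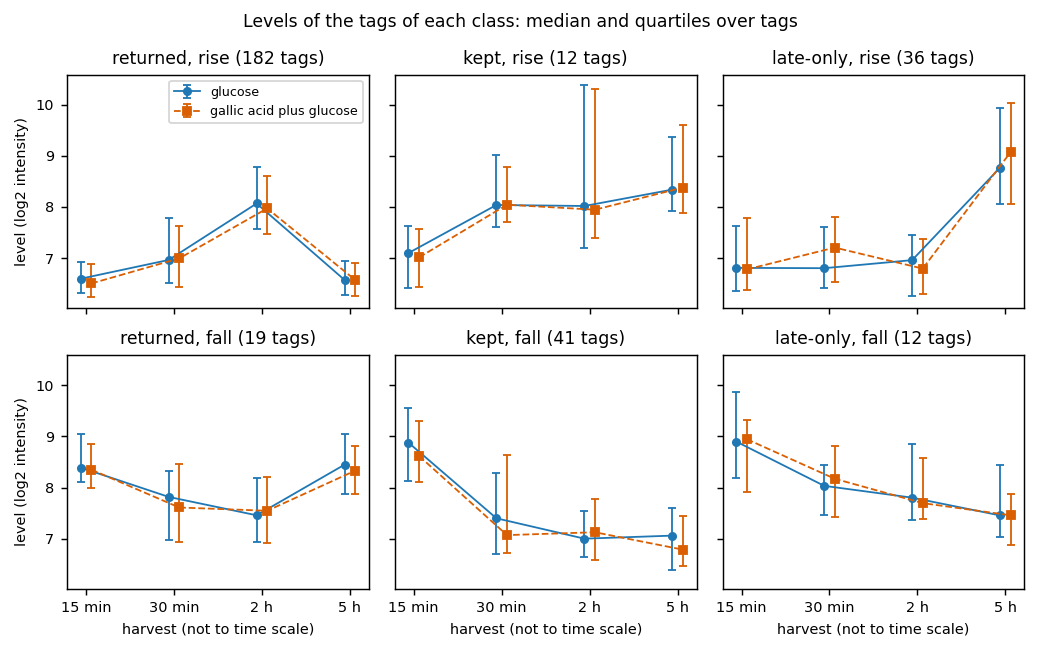
Median level (log2 intensity, y axis; bars give the quartiles over the tags, not an error of measurement) of the returned, kept and late-only tags at each harvest (x axis, not to time scale), with 1 array per point and circles for glucose, squares for gallic acid plus glucose. The 182 returned rises peak at 2 h near 8 and end near 6.57, the 41 kept falls are down by 30 min, and the 36 late-only rises stand apart at 5 h alone.

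Kept changes were mostly falls. The 41 kept falls had a median early change of -1.76 and a median net change of -1.62. Their median level went from 8.88 to 7.40, 6.998 and 7.06 in glucose and from 8.62 to 7.07, 7.12 and 6.78 with gallic acid. The 12 kept rises went from 7.10 to 8.04, 8.02 and 8.34 in glucose and from 7.01 to 8.04, 7.95 and 8.38 with gallic acid. In the net comparison, which the definition uses, 38 of the 41 falls and all 12 rises were called. The 7 tags that fell by at least 2 in both arms were all kept falls.

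After the tags already named, the largest kept rise was that of ARAD1D05984g, which climbed at every harvest from 7.11 to 7.88, 8.91 and 9.30 in glucose and from 7.08 to 8.13, 8.76 and 9.44 with gallic acid. Its net change was 2.28 (SE 0.11, 4.86-fold, adjusted p = 0.00137), and it passed in all 16 alternative fits. ARAD1D30316g was up at 30 min, lower at 2 h and up again at 5 h, with 7.09, 8.59, 7.35 and 8.33 in glucose and 6.25, 8.40, 7.41 and 8.40 with gallic acid. Its net change was 1.69 (SE 0.24, adjusted p = 0.0171), and it missed the threshold without either 5 h array (adjusted p = 0.0858 without glucose, 0.125 without gallic acid). Over the alternatives its net change ran from 1.28 to 3.12.

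Among the kept falls, ARAD1A06820g went from 10.21 to 8.39, 7.88 and 7.57 in glucose and from 10.75 to 9.86, 7.77 and 7.18 with gallic acid. The net change was -3.11 (SE 0.45, 8.61-fold, adjusted p = 0.0189). ARAD1D18788g went from 9.97 to 8.07, 7.71 and 6.10 in glucose and from 8.43 to 6.48, 7.49 and 6.47 with gallic acid, a net change of -2.91 (SE 0.53, adjusted p = 0.0306). Its arms differed at the start and met at the end. Neither call held when any one of the 4 arrays at 15 min and 5 h was left out, with adjusted p between 0.0622 and 0.121 for ARAD1A06820g and between 0.0593 and 0.140 for ARAD1D18788g. For the latter it was also lost over the downstream probes (-1.11, adjusted p = 0.0714) and without the 2 h pair (adjusted p = 0.0658).

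Late-only tags moved by at least 1 in both arms at 5 h, and at no earlier harvest had they done so in both arms. Smaller earlier moves, or moves in 1 arm, are not excluded. There were 36 rises and 12 falls. The rises held 14 of the 16 tags that rose by at least 2 in both arms. Their median level was 6.81, 6.80, 6.96 and 8.77 in glucose and 6.78, 7.20, 6.79 and 9.08 with gallic acid. The falls came in steps, with medians of 8.90, 8.03, 7.80 and 7.45 in glucose and 8.95, 8.17, 7.69 and 7.46 with gallic acid.

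ARAD1D05368g was flat until 2 h, with 6.10, 6.08 and 6.12 in glucose and 6.13, 6.39 and 6.10 with gallic acid, and reached 9.59 and 9.69 at 5 h. The fitted change was 3.52 (SE 0.09, adjusted p = 0.000282), against a start close to the background. At 15 min 60% of its probes in glucose and 20% with gallic acid were well above background, and at 5 h all were. The size therefore depends on the background correction, with 4.43 in the log2 values of the authors, 5.29 with the offset at 0 and 6.51 with the processed signal. ARAD1B23760g moved from 6.46 through 6.76 and 7.43 to 9.85 in glucose and from 6.38 through 7.20 and 7.26 to 9.82 with gallic acid. It rose by a net 3.42 (SE 0.16, 10.7-fold, adjusted p = 0.00137). The size differed between its probes and with the correction, from 1.85 over the downstream probes to 5.45 with the processed signal. Both tags passed in all 16 alternative fits.

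The late falls were shallower. ARAD1D34980g, a bright tag, read 12.23, 11.26, 11.52 and 10.11 in glucose and 11.78, 11.11, 11.37 and 10.45 with gallic acid, a net change of -1.72 (SE 0.19, 3.29-fold, adjusted p = 0.0102). With the 4 arrays of 15 min and 5 h alone its adjusted p was 0.0646. ARAD1D14872g read 9.26, 8.06, 8.77 and 7.78 in glucose and 9.33, 8.34, 8.41 and 7.40 with gallic acid, a net change of -1.70 (SE 0.18, adjusted p = 0.0102). Without the glucose array at 5 h its adjusted p was 0.0533 and without the gallic acid array at 5 h 0.0855.

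Of the 6 tags that reversed, 5 rose early and ended lower, with net changes from -0.92 to -0.61. The remaining tag, ARAD1B01782g, was singled out after its values were seen. It fell from 8.17 at 15 min to 6.24 at 30 min and 6.54 at 2 h in glucose and then rose to 10.59. With gallic acid it went from 7.49 to 6.05 and 6.22 and then to 10.38. The net result was a rise of 2.65 (SE 0.13, adjusted p = 0.00161).

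Whether the net change differed between the arms was tested as an interaction term in the same model, with 2 residual degrees of freedom. In limma no tag passed (0 of 6111, 0%, with a lowest adjusted p of 0.999), and 248 tags had an unadjusted p below 0.05. A missed threshold at this size does not show that the arms ended alike. The gallic acid minus glucose difference of net changes had quartiles of -0.12 and 0.11, and 57 tags differed by at least 1, 24 of them with the higher value in the gallic acid arm. In 39 of the 57 the arms were further apart at 15 min than at 5 h, and in 18 they were further apart at 5 h.

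The widest gaps came from both ends of the course. ARAD1C26070g ended higher with gallic acid, where it climbed from 7.94 to 8.14, 9.38 and 10.41, while in glucose it read 8.34, 7.25, 6.92 and 8.46. The difference of its net changes was 2.36 (SE 1.02, unadjusted p = 0.0829, adjusted p = 0.999). ARAD1A02926g peaked at 30 min in both arms, at 12.56 in glucose and 12.79 with gallic acid, from 9.32 and 8.36 at 15 min. It then stood at 9.70 and 9.99 in glucose and at 11.47 and 11.35 with gallic acid, a difference of 2.31 (SE 0.96, unadjusted p = 0.0755, adjusted p = 0.999).

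In the other direction, ARAD1D03366g was high on a single array. It read 9.89 with gallic acid at 15 min and between 5.88 and 6.26 on the other 7 arrays. All of its 9 probes were well above background on that array, against 11.1% to 66.7% in glucose. The fitted difference was -3.64 (SE 1.49, unadjusted p = 0.0714, adjusted p = 0.999). Its size is set by dim arrays, since 11.1% of the probes in glucose at either harvest and 44.4% with gallic acid at 5 h were well above background, and it was -4.45 in the log2 values of the authors, -5.03 with the processed signal and -5.15 with the offset at 0. ARAD1B13508g, with 5 probes, read 10.16, 7.67, 8.11 and 6.97 with gallic acid and 6.83, 6.84, 7.73 and 6.58 in glucose. Its difference was -2.95 (SE 0.93, unadjusted p = 0.0341, adjusted p = 0.999). For these 2 tags the net fall with gallic acid is the loss of a high first value.

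The study's text gives roles in aromatic acid breakdown to 10 tags. Of these 9 were found on the arrays, 8 were tested and none passed for the net change, where 13.3% of all tags did. The median net change of the 8 was -0.03, against 0.01 for all tags. ARAD1D18458g, given for *ACDO1*, a catechol-1,2-dioxygenase that opens the aromatic ring, read 6.21, 6.56, 7.10 and 6.10 in glucose and 6.14, 6.76, 7.07 and 6.09 with gallic acid. It was highest at 2 h in both arms and ended at -0.08 (SE 0.08, interval -0.28 to 0.12, adjusted p = 0.559). The study reports that gallic acid induces *ACDO1*, which a net change common to both arms does not address. Only 10% of probes exceeded the background clearly at 5 h in either arm, so the end value lies near it. Its probe names give starts from 815 to 1618, and the last of these lie beyond the reading frame that the study describes, so the values may not be those of the gene.

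ARAD1D18502g, a phenol hydroxylase tag (phenol hydroxylases add a hydroxyl group to the ring), read 8.18, 8.68, 8.15 and 8.66 in glucose and 8.68, 8.39, 8.25 and 8.83 with gallic acid. Its net change was 0.32 (SE 0.18, interval -0.15 to 0.79, adjusted p = 0.312). The other tested tags are hydroxylase candidates. The study drew them from arrays with protocatechuic acid or, for ARAD1A17402g, from protein similarity. ARAD1D18392g went from 7.27 to 6.72 in glucose and from 6.91 to 6.71 with gallic acid, a net change of -0.37 (SE 0.12, adjusted p = 0.112). ARAD1C03498g had its highest level at 2 h, with 8.58 in glucose and 7.83 with gallic acid, and ended at a net change of -0.19 (SE 0.31, adjusted p = 0.731). ARAD1D27984g was lowest at 2 h, with 7.17 and 7.37, and ended at -0.06 (SE 0.10, adjusted p = 0.753). For ARAD1C03498g the net change read 0.15 in glucose and -0.53 with gallic acid, a difference that did not pass (limma interaction, adjusted p = 0.999). The interval of the mean ran from -0.99 to 0.61. With the mean of the probes the net change was -0.60 and with the brightest probe -1.24.

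ARAD1C00330g stayed between 5.89 and 5.98 in glucose, where no more than 20% of probes exceeded the background clearly, and read 6.33, 7.12, 6.70 and 6.59 with gallic acid. The net change was 0.13 (SE 0.17, adjusted p = 0.650). ARAD1C08558g and ARAD1A17402g lay between 5.83 and 6.02 on all 8 arrays with no more than 30% of probes clearly above the background, so no course could be measured for them. The candidate ARAD1C08580g, with 3 probes, did not meet the filter.

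Of the 36 putative mitochondrial tags 35 were tested, and 1 was called higher and none lower, where 6.74% and 6.53% of all tags were. They had 21 values above and 14 below the first level, against 3266 and 2845 over all tags. Their median net change was 0.00 in glucose and 0.14 with gallic acid, and that of all tags 0.02 and 0.01.

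Called tags lay on every chromosome. The share called higher ran from 6.17% of the tags of letter C to 7.37% of those of letter B, and the share called lower from 5.82% on C to 7.43% on D. Of the tags that rose by at least 1 in both arms, 11 lay on A, 6 on B, 9 on C and 23 on D, where 856, 1045, 1976 and 2168 tags were tested. Of the 31 tested tags with the letter X, none was called higher and 1 was called lower.

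Among tested tags next to each other in the order of their numbers, 134 of the 411 chromosomal tags called higher (32.6%) and 121 of the 398 called lower (30.4%) stood beside at least 1 tag called the same way. Any tag that was not tested was passed over in this order. A tag has up to 2 neighbours, and 6.74% and 6.53% of all tags were called higher and lower. Whether called tags cluster was not tested. The longest runs held 4 tags. The run that ends with ARAD1B23760g had net changes of 0.74, 2.37, 0.38 and 3.42. Another on B held 1 tag with a rise of 3.35, among the largest of all, with 0.48 before it and 0.53 and 0.86 after it. On D a run of 4 falls, from -0.98 to -0.26, was followed after 1 tested tag, and a gap in the numbers, by a run of 4 rises of 2.65, 1.64, 2.78 and 0.47. In all of these the arms moved the same way, as in every called tag. Neighbouring genes can overlap, and the labels do not say whether probes tell strands apart, so signal shared between neighbours was not tested.

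**Figure D5:**
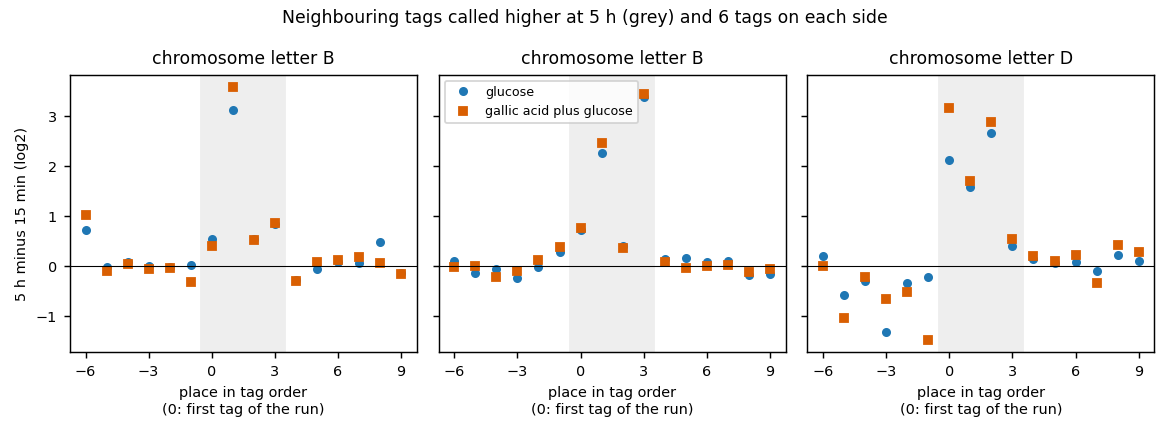
Net change (5 h minus 15 min, log2, y axis) of the tags in 3 of the runs of 4 neighbours called higher (grey band) and of the 6 tested tags on each side, in the order of their numbers (x axis, 0 for the first tag of the run). Circles are glucose and squares gallic acid plus glucose, 1 value each; the highest members reach 3.35, 3.42 and 2.78 on average, and the tags beside the runs lie mostly near 0 except for the falls to the left of the run on D.

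Within a tag the probes differed. Over the 49 rises the SD of the net change over probes had a median of 0.43 in glucose and 0.46 with gallic acid, and over the 53 falls 0.42 and 0.43. The median difference between upstream and downstream probes of a tag in net change was 0.04 in glucose and 0.00 with gallic acid over 5950 tags with at least 4 probes.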

How the data were processed

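Per the labels, the 8 samples are total RNA of *B. raffinosifermentans* LS3. In the deposited scanner output, each spot has an intensity from Agilent Feature Extraction 11.5.1.1, with flags and a processed signal. A log2 table was also deposited, for which the authors used normexp and quantile normalisation (limma). Its offset is not given in the sources used here, and its values followed those computed here in rank on each array (rho of 1).

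In R 4.3.3 with limma 3.58.1, median spot signals were corrected with normexp (offset 50) against the median local background. Control spots and 1 probe without a tag were dropped, arrays were quantile-normalised, outlier spots were left out and the median over probes was taken for each tag. Linear models with harvest and arm as terms were fitted to all 8 arrays (3 residual degrees of freedom), so that the 30 min and 2 h pairs add to the estimate of the spread, with empirical Bayes, and 5 h minus 15 min was tested. Code was tested on simulated data.

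Named tags are those with a role in the study's text and, with at least 4 probes, the 2 highest and 2 lowest of the net change, of the difference between the arms and of each class. The members, lists and thresholds were chosen with earlier results of these data known. Lists that need an annotation were not analysed here. The number of arrays limits the precision. Alternatives were other background corrections and scalings, probe summaries, filters, Bonferroni, other priors, other blocks, fewer arrays and other sizes.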

Additional observations from a re-analysis of the deposited data

Results flagged for a closer look

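For 5 of the named tags the net change had opposite signs in the arms, with 1 array per arm and harvest. The gallic acid minus glucose difference was -3.64 for ARAD1D03366g, -0.68 for ARAD1C03498g, -0.35 for ARAD1D27984g, -0.30 for ARAD1D25300g and 0.015 for ARAD1C08558g. In the interaction test each had an adjusted p of 0.999. No group held enough arrays for a test of outlying samples.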

How the results depend on the processing

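The 0 calls for the difference between the arms held under every alternative run for it. All 811 calls of the net change kept their sign under other scalings with the tag median. With the mean of the probes 810 did, with the downstream probes 796 and with the brightest probe 753. Of the 412 tags called higher, 214 (brightest probe) to 395 (authors' log2 values) were called again in these settings. Of the 399 called lower, 231 to 396 were. Counts within 1.5 times of the reported ones are not listed. With the processed signal minus its 75th percentile, which moves the median net change of all tags to -0.12 in glucose and 0.15 with gallic acid, 230 tags rose and 350 fell by size, 384 returned (250 after a rise and 134 after a fall), 302 kept a change and 252 were late-only. With the offset at 0 these counts were 144, 170, 419, 166 and 142, in the log2 values of the authors they were 86, 96, 326, 96 and 84, and with a size of 0.58 they were 152, 172, 630, 177 and 134. With the brightest probe 110 rose, 165 fell, 161 kept a change and 105 were late-only. With a band of 0.25, 101 returned. Median scaling left 230 tags called higher, and Bonferroni adjustment 19 higher and 3 lower. The fit of the 4 arrays alone (1 residual degree of freedom) gave 89 and 88, and the fit without the 2 h pair 199 and 155. Leaving out 1 of the 4 arrays gave 41 to 205 higher and 14 to 257 lower, with the lone array of that harvest assumed to vary like the others. Without the arm as a block (no replicate block) 429 and 393 passed. In the labels each group has a single array, so the arm is the only pairing. The causes of these differences were not tested, except that fewer arrays enter the smaller fits.

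Among the named tags, signs turned only for those that had not passed. With the processed signal ARAD1C00330g read -0.027 and ARAD1A17402g -0.21. ARAD1C08558g read -0.0060 in the authors' table, -0.0042 with the brightest probe and -0.023 with downstream probes. With 1 array left out, ARAD1C03498g ran from -0.59 to 0.21, ARAD1D27984g from -0.21 to 0.10, ARAD1C00330g from -0.090 to 0.35 and ARAD1C08558g from -0.0090 to 0.014. Of the other values of named tags under alternatives, 325 stayed on their side, 20 lost their call, and 25 early changes of returned tags moved by more than the spread between the arms without a change of sign. Signal over background limits what dim tags can show, since the offset shrinks their ratios.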
